A study of Homo sapiens with 8 samples.

Results

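Chaperones are proteins that hold, fold and release other proteins. HSP70 binds short exposed stretches of unfolded chains in a cycle of ATP hydrolysis that J-domain proteins start and nucleotide exchange factors reset, and HSP90 takes over partly folded clients, among them kinases and steroid receptors, together with cochaperones. The chaperonins are double-ringed chambers: TRiC folds actin, tubulin and other proteins of the cytosol, and HSPD1 with its lid HSPE1 folds proteins inside mitochondria. Heat shock factors such as HSF1 switch on many of these genes by binding repeated GAA units, called heat shock elements, in their promoters.

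The genes described here are 41 cytosolic and mitochondrial chaperones, cochaperones and heat shock factors, taken by symbol from a list out of 19447 named genes, by a rule that uses no measured value, though the list was drawn up with earlier results of these data known. All 41 were found, and all 41 passed the filter on low counts. The cells were K562, an established human cell line from a chronic myeloid leukaemia with erythroid features, labelled wild type and grown in RPMI 1640 with 10% fetal bovine serum. The study comprised 4 control libraries without Lip-1, labelled Day 0, 3 libraries from cells given 10 µM Lip-1 and 1 library from cells given 20 µM, both for 24 h and labelled Day 1. The labels do not spell out Lip-1, a name often given to liproxstatin-1, which blocks lipid peroxidation and the iron-dependent cell death called ferroptosis. The labels do not say whether controls received a vehicle, so exposure to Lip-1, any vehicle and the day of harvest cannot be told apart, and nothing in them says that libraries came from separate cultures, so the p-values measure only the spread between these libraries.

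Replicates carried the numbers 1 to 4 among controls, 2 to 4 at 10 µM and 1 at 20 µM, and library totals ran from 71151415 to 141307169 counts. All 10 erythroid markers examined were detected, with a summed level of 3356 to 8054 counts per 1000000 total counts (CPM). Of the 3 lymphoid markers none exceeded 1.2 CPM. The 3 myeloid markers summed to between 107 and 124 CPM in controls 1 and 4 and replicate 4 at 10 µM, almost all of it LYZ, and to between 17.7 and 26.3 CPM in the other 5 libraries, with MPO at 0 in 7 of 8 libraries. The fibroblast markers COL1A1 and DCN summed to 0.32 to 2.80 CPM in 7 libraries and to 10.3 CPM at 20 µM, and the epithelial markers EPCAM and KRT5 to 28.0 to 54.4 CPM in 7 and 17.6 CPM at 20 µM. Among the erythroid markers, the globins HBZ, HBG1 and HBG2 fell at 10 µM, with log2 fold changes of -2.13, -0.82 and -0.75 (adjusted p = 0.0273, 0.0136 and 0.0238), and the transferrin receptor gene TFRC rose by 0.52 (adjusted p = 0.0302). At 20 µM against 10 µM, GATA1, TAL1 and TFRC were lower, by log2 differences of -1.70, -1.55 and -1.28 (adjusted p = 0.00095, 0.0487 and 0.00433). These markers moved in the same comparisons as the chaperone genes below, and their part in those results was not tested. Controls 1 and 4, replicate 4 at 10 µM and the 20 µM library have names made of letters in the submitters' table, and the others have digits. The labels do not call this pattern a batch. The erythroid marker ALAS2 followed the names. It had 152 and 154 CPM in controls 1 and 4, 107 CPM in replicate 4 at 10 µM and 145 CPM at 20 µM. In the digit-named libraries it had 12.5 to 17.8 CPM. Calls within each kind of name are given for 10 µM against control only.

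The chaperone genes made up a smaller share of all counts in every treated library than in any control. Their summed share was 2.50, 3.02, 3.05 and 2.65% of counts in controls 1 to 4. It was 2.02, 2.02 and 1.91% in replicates 2 to 4 at 10 µM, and 1.42% at 20 µM. The letter-named controls 1 and 4 thus lay below the digit-named controls 2 and 3. Single genes also split by name among controls, HSPA8 and HSPD1 in this direction and HSPB1 in the opposite one. In RNA from whole cultures, fewer cells of one state and less RNA per cell cannot be told apart.

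At 10 µM against control, 21 of the 41 fell and 1, DNAJB4, rose. Of 14857 genes tested, 19.1% were called in either direction, 9.79% lower and 9.34% higher, beside 53.7% of the chaperone genes. Their median log2 fold change was -0.55, beside 0.05 over all genes tested. In CPM, 21 of 41 were below every control in each of the 3 libraries at 10 µM, and 10.7% of all genes tested were. Only DNAJB4 was above every control in each, as were 21.8% of all genes tested. The direction was shared within numbered pairs: 32 of 41 were lower than the same-numbered control in 3 of 3 pairs, against 18.1% of all genes tested. With the replicate number as a block, 36 chaperone genes were called, 34 of them lower, against 31.3% of all genes. That fit matches control 1 and the 20 µM library exactly. Its spread, for both dose comparisons, rests on the 3 pairs at 10 µM and on sharing across genes. Few residual degrees of freedom remain, so p-values with the block are no firmer than those without it. Among the digit-named libraries alone 30 were called, 29 lower, against 24.2% of all genes, and among the letter-named ones alone 13 were called, 12 lower, against 6.76%. The letter-named fit holds 1 library at 10 µM, 2 controls and the 20 µM library, so its spread rests on the 2 controls and on sharing across genes, with 1 residual degree of freedom, and its count supports nothing alone. Without control 1, HSPA1B, HSPH1 and HSP90AA1 were called lower as well. Without replicate 2 at 10 µM HSF1 was called lower too, while 20 of the 22 calls stayed. Left out singly, controls 2, 3 and 4 brought the count from 22 to 19, 19 and 21. Replicates 3 and 4 at 10 µM brought it to 18 and 19. In the same order, the genes called in all went from 2842 to 1880, 1640, 2112, 1364 and 1463, of 14771 to 14868 tested.

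The single 20 µM library was then set against 10 µM, where 16 of the 41 were lower and 6 higher. Of 14857 genes, 26.3% were called in this comparison, 14.6% lower and 11.7% higher. The median log2 difference of the chaperone genes was -0.57, beside 0.01 over all genes. This comparison uses the 10 µM libraries that the first one also uses, and the lone library is assumed to vary like the other groups. The 20 µM library is letter-named, while replicates 2 and 3 at 10 µM are digit-named. The dose step is therefore partly mixed with the style of name. With the replicate number as a block 15 were called, 4 higher and 11 lower, against 19.1% of all genes, and without replicate 3 at 10 µM 13 were called. Calls over all genes also became fewer without replicate 3 at 10 µM. Leaving out other libraries changed calls in both directions. HSPA8, HSPH1, HSP90AA1 and HSP90AB1 were called lower without control 1, and HSPH1 and HSP90AA1 without control 2. HSPA8 was called lower without control 3, and HSPA8, HSPH1, FKBP4 and STIP1 without replicate 4 at 10 µM. Without control 4 or replicate 2 at 10 µM calls were only lost. Some calls were also lost without control 2 or replicate 4 at 10 µM. DNAJB2 was called higher without control 3 or replicate 4 at 10 µM.

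Across all 4 treated against 4 control libraries, 17 of the 41 were called, 16 lower and 1 higher, against 14.2% of 13101 genes tested, 6.69% lower and 7.47% higher. Their median log2 fold change was -0.63, beside 0.08 over all genes, and 20 of 41 lay below every control in all 4 treated libraries, against 10.5% of all genes. In 27 of 41 each treated library was below its same-numbered control, against 15.5% of 14857 genes. The calls in this comparison changed with single libraries in both directions. Without control 2 or without control 3 no chaperone gene was called, while 149 and 64 genes in all were. Without the 20 µM library 23 were called, and 3021 genes in all. Left out singly, control 1, control 4, replicate 3 at 10 µM and replicate 4 at 10 µM brought the count to 7, 2, 8 and 2, and replicate 2 at 10 µM to 18. In the same order, the genes called in all numbered 567, 315, 814, 312 and 2063, of 13301 to 13425 tested, beside 1855 of 13101 with all libraries. With the replicate number as a block, 25 were called, against 21.5% of all genes, the 17 with HSPA4, HSPA4L, HSPH1, HSP90AA1, DNAJB2, TRAP1, CCT6A and CCT8 (adjusted p 0.0115 to 0.0401). The 2 doses are therefore described separately below.

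**Figure D1:**
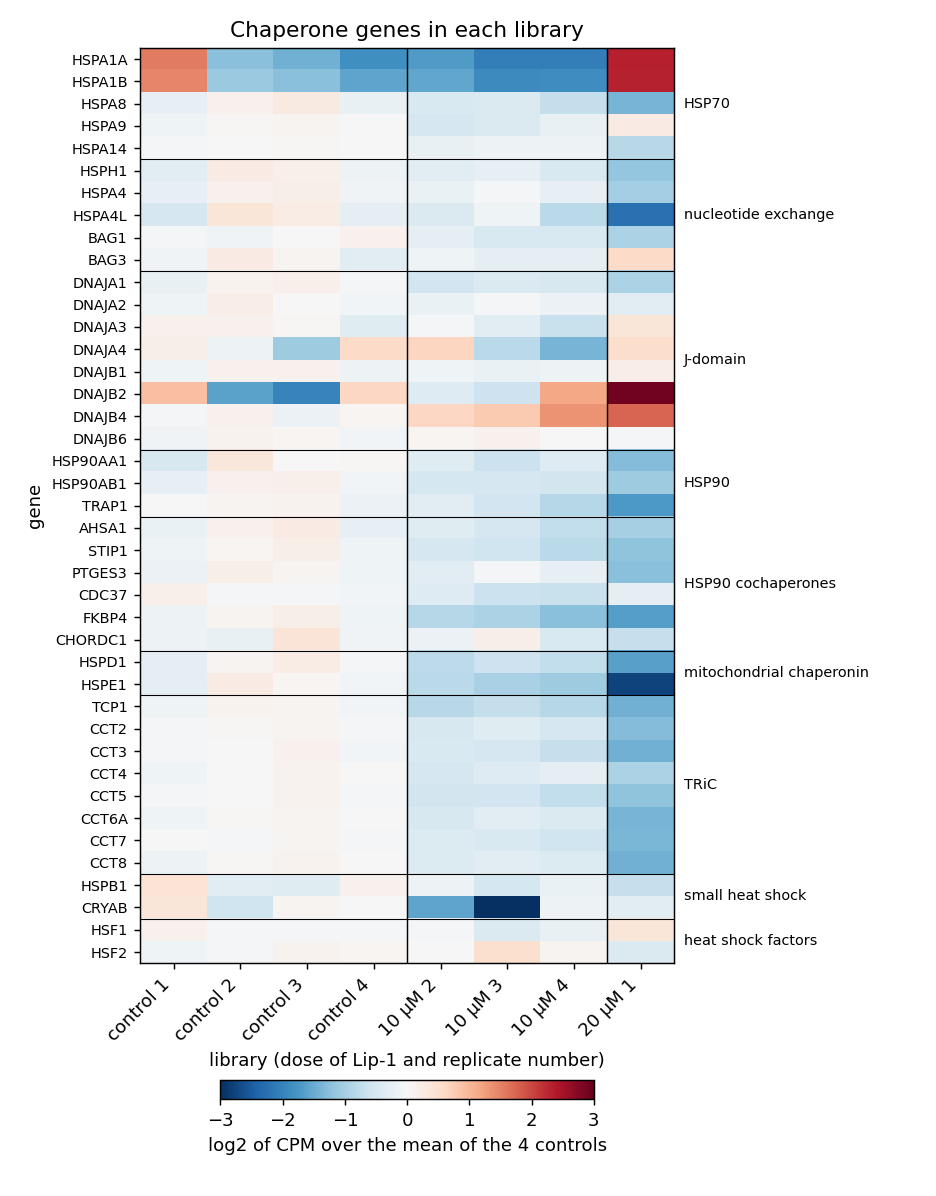
Level of each of the 41 chaperone genes (vertical axis, grouped by role) in each of the 8 libraries (horizontal axis), as log2 of CPM over the mean of the 4 controls. Most rows are paler blue at 10 µM and darker blue at 20 µM, DNAJB4 is red in all 4 treated libraries, and HSPA1A and HSPA1B are red in control 1 and in the 20 µM library.

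Per length of annotated exon, the constitutive chaperones led in control cells. That length joins the exons of all annotated transcripts of a gene, so the ranking depends on the annotation. HSP90AB1, the constitutive cytosolic HSP90, had 1925 ± 237 CPM per kilobase of annotated exon (RPKM; SD, n = 4). HSPA8, the constitutive HSP70, followed with 848 ± 151 RPKM, and HSP90AA1, the stress-responsive HSP90, with 553 ± 126 RPKM. The next, CCT8 with 345 ± 27.2 RPKM and HSPD1 with 328 ± 47.7 RPKM, did not differ beyond their spread. The lowest were DNAJA4, CRYAB and DNAJB2, with 0.06, 0.41 and 0.74 RPKM.

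Promoter sequence is shown for 4 genes whose levels differ in kind: the near-identical inducible pair HSPA1A and HSPA1B, HSP90AB1, which was the most abundant, and DNAJB4, which rose. Each is a stretch of 165 bases on the plus strand, from 250 to 86 bases before the RefSeq start, read from RefSeq (GRCh38.p14) and lying outside annotated exons. The positions are chr6:31815293-31815457 for HSPA1A, chr6:31827488-31827652 for HSPA1B, chr6:44247693-44247857 for HSP90AB1 and chr1:78004689-78004853 for DNAJB4. The stretches of HSPA1A and HSPA1B lie before the annotated genes, and those of HSP90AB1 and DNAJB4 lie in introns before an internal start. Capitals mark matches to a pair of facing heat shock units, GAANNTTC or TTCNNGAA, each of which reads the same on both strands, and the motifs may overlap one another.
HSPA1A: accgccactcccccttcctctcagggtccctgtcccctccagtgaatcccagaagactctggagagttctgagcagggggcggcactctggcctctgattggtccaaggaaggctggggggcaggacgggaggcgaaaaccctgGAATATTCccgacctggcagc
HSPA1B: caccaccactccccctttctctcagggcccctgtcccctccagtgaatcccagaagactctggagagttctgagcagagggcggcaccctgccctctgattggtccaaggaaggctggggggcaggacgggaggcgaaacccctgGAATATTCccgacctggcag
HSP90AB1: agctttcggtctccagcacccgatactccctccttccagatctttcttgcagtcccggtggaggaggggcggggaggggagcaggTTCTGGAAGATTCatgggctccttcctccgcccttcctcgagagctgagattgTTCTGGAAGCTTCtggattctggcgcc
DNAJB4: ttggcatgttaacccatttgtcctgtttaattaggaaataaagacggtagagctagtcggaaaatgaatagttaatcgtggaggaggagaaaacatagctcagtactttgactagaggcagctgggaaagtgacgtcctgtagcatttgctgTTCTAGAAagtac
The HSPA1A and HSPA1B stretches were identical at 157 of 166 aligned positions, and each held 1 match, 106 and 105 bases before the start. HSP90AB1 held 4 overlapping matches in a pair of clusters, and DNAJB4 held 1, 98 bases before its start. Over the full windows, from 250 bases before to 50 after the start, 36 of the 41 genes matched an entry, with 52 windows in all. Either motif was in 20 of these 52 windows, from 19 genes, and in 13.5% of the 35116 windows of 300 bases in the table. A run of 3 alternating units, in which both motifs overlap, was found in 0.49% of windows, and in those of CHORDC1, DNAJA1, DNAJB6, HSP90AA1, HSP90AB1, HSPA8 and HSPD1. These matches describe letters in the reference and were not tested as binding sites. No entry was matched for HSPA14, CRYAB, CCT6A, FKBP4 and HSF1.

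Among the HSP70 proteins, HSPA8, HSPA9 and HSPA14 fell at 10 µM, and the inducible pair HSPA1A and HSPA1B was high in both libraries numbered 1. HSPA1A (chr6:31815464-31817946, plus strand) stood at 369, 52.9, 46.3 and 34.9 CPM in controls 1 to 4, at 38.7, 29.8 and 29.9 CPM in replicates 2 to 4 at 10 µM and at 632 CPM at 20 µM. HSPA1B (chr6:31827735-31830255, plus strand) stood at 350, 58.7, 53.1 and 42.1 CPM in the controls, 43.0, 33.7 and 34.5 CPM at 10 µM and 621 CPM at 20 µM. Control 1 and the 20 µM library thus stood well above the other 6 for both genes. Of the stretches of 100 bases along the HSPA1A transcript, 69.9% also occur in HSPA1B, so how the authors' counting divided reads between the copies bears on each value. The 20 µM library stood 1.71 times above control 1 for HSPA1A and 1.77 times for HSPA1B, and each 10 µM library stood at 0.64 to 0.86 and 0.63 to 0.82 times its same-numbered control.

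For this pair, the log2 fold changes at 10 µM were -2.03 ± 0.79 (SE, adjusted p = 0.106) for HSPA1A and -1.86 ± 0.71 (adjusted p = 0.0998) for HSPA1B, and neither passed the test. With the replicate number as a block they were -0.58 ± 0.11 (adjusted p = 0.00359) and -0.61 ± 0.11 (adjusted p = 0.00244). The 20 µM library was higher than 10 µM by 4.26 ± 1.02 for HSPA1A (adjusted p = 0.0148) and by 4.06 ± 0.92 for HSPA1B (adjusted p = 0.0118), and with the block by 1.29 ± 0.23 (adjusted p = 0.00368) and 1.37 ± 0.22 (adjusted p = 0.00239). The difference at 20 µM was smaller with the block, in which the 20 µM library is set against control 1. The call for HSPA1A at 20 µM was lost without replicate 3 at 10 µM (adjusted p = 0.0543). With the counts of both copies summed, the log2 differences were -1.94 at 10 µM (adjusted p = 0.103) and 4.16 at 20 µM against 10 µM (adjusted p = 0.0132).

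HSPA8, which folds new chains and uncoats clathrin vesicles, had 3450, 4522, 4932 and 3537 CPM in controls, 2985, 3029 and 2488 CPM at 10 µM and 1566 CPM at 20 µM. All treated libraries were below all controls. It fell at 10 µM by 0.67 on the log2 scale (SE 0.18, adjusted p = 0.0323), a call that was lost when control 2, control 3 or any 10 µM library was left out (adjusted p 0.0527 to 0.0956). At 20 µM against 10 µM the log2 difference was -0.86 ± 0.28 (adjusted p = 0.0515), and with the block -0.46 (adjusted p = 0.0272). GENCODE lists 17 pseudogenes named after HSPA8, whose reads the counting may have shared.

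HSPA9, the mitochondrial HSP70 (mortalin), followed another course. It had 905, 1015, 1038 and 982 CPM in controls, 700, 734 and 842 CPM at 10 µM and 1160 CPM at 20 µM, so the 10 µM libraries were below and the 20 µM library above every control. It fell by 0.51 at 10 µM (SE 0.11, adjusted p = 0.0139) and was higher at 20 µM than at 10 µM by 0.61 ± 0.16 (adjusted p = 0.0206). HSPA14, an HSP70 that works at the ribosome, ranged from 134 to 141 CPM in controls and from 117 to 125 CPM at 10 µM, and had 78.1 CPM at 20 µM. Its change at 10 µM, -0.31 ± 0.09 (adjusted p = 0.0476), kept its call in 2 of 8 fits that left out 1 library. The difference of the 20 µM library from 10 µM was -0.64 ± 0.14 (adjusted p = 0.0114), and with the block -0.51 (adjusted p = 0.101).

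**Figure D2:**
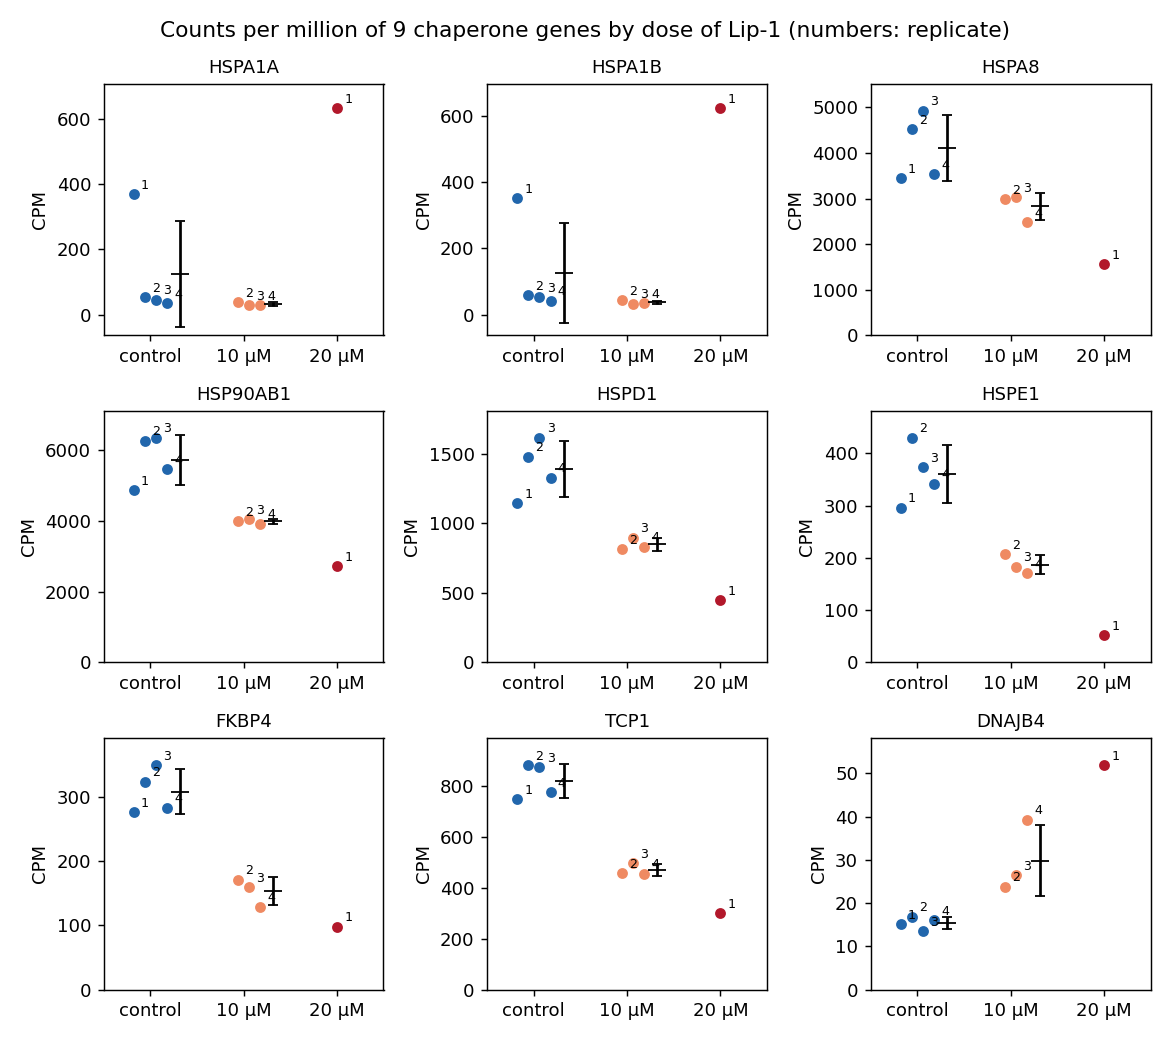
CPM (vertical axes, linear) by dose of Lip-1 (horizontal axes) for 9 chaperone genes, with 1 point for each library, its replicate number beside it, and bars for the mean and SD of the 4 controls and 3 libraries at 10 µM. HSPA1A and HSPA1B are high in the 2 libraries numbered 1, DNAJB4 is higher in each treated library than in any control, and the other 6 genes are lower in each treated library than in any control.

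The nucleotide exchange factors reload HSP70 with ATP. Only BAG1, which also binds BCL2, passed the test at 10 µM among the 5 measured, 20.0% against 19.1% of all genes. BAG1 had 89.4, 84.3, 92.0 and 99.7 CPM in controls, 74.8, 66.7 and 66.9 CPM at 10 µM and 47.6 CPM at 20 µM, and fell by 0.52 (SE 0.10, adjusted p = 0.0101). Its level at 20 µM was lower than at 10 µM, by a log2 difference of -0.55 (adjusted p = 0.0321), which with the block was -0.42 (adjusted p = 0.253). That call was lost without replicate 2 or replicate 3 at 10 µM (adjusted p = 0.0507 and 0.0596).

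The HSP110 proteins HSPH1, HSPA4 and HSPA4L were lowest in the 20 µM library. HSPA4L had 71.0, 130, 117 and 83.3 CPM in controls, 74.7, 91.8 and 57.6 CPM at 10 µM and 21.2 CPM at 20 µM. Its controls overlapped the 10 µM libraries, where the log2 fold change was -0.56 ± 0.26 (adjusted p = 0.171), and it was lower at 20 µM than at 10 µM (-1.83 ± 0.44, adjusted p = 0.0150). HSPA4 had 436, 569, 588 and 486 CPM in controls, 454, 501 and 437 CPM at 10 µM and 257 CPM at 20 µM, and was lower at 20 µM than at 10 µM too (-0.86 ± 0.24, adjusted p = 0.0275; with the block -0.45, adjusted p = 0.104; without replicate 3 at 10 µM -0.80, adjusted p = 0.0578). HSPH1 had log2 differences of -0.47 at 10 µM (adjusted p = 0.0893) and -0.83 at 20 µM against 10 µM (adjusted p = 0.0503). With the block all 3 fell at 10 µM, by 0.57 for HSPH1 (adjusted p = 0.00213), 0.38 for HSPA4 (adjusted p = 0.00733) and 0.71 for HSPA4L (adjusted p = 0.00109).

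BAG3, which hands damaged clients to autophagy, went the other way at 20 µM. It had 47.5, 60.4, 54.1 and 41.1 CPM in controls, 46.7, 42.3 and 41.8 CPM at 10 µM, within the control range, and 75.9 CPM at 20 µM, above every other library. Its log2 difference was -0.35 at 10 µM (adjusted p = 0.153; with the block -0.38, adjusted p = 0.0368) and 0.80 ± 0.22 at 20 µM against 10 µM (adjusted p = 0.0289). The call at 20 µM was lost without replicate 3 or replicate 4 at 10 µM (adjusted p = 0.0685 and 0.0615).

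Of the 8 J-domain proteins, which deliver clients to HSP70, 1 rose and 1 fell at 10 µM. That is 25.0% called, against 19.1% of all genes, a share near the background. DNAJB4 had 15.1, 16.9, 13.6 and 16.0 CPM in controls, 23.8, 26.5 and 39.3 CPM at 10 µM and 52.0 CPM at 20 µM. No control reached any treated library. It rose by 0.82 ± 0.17 (adjusted p = 0.0110), and was higher at 20 µM than at 10 µM by 0.81 ± 0.24 (adjusted p = 0.0362; with the block 0.94, adjusted p = 0.0564). The second call was also lost without control 4, replicate 2 or replicate 3 at 10 µM (adjusted p 0.0556 to 0.0931). DNAJB4 overlaps GIPC2 in the annotation, a gene that did not pass the filter on low counts.

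DNAJA1, which works with HSPA8, fell, and DNAJB1, the main stress-inducible J-domain protein, did not pass the test. DNAJA1 had 363, 454, 465 and 405 CPM in controls, 283, 312 and 303 CPM at 10 µM and 217 CPM at 20 µM, and fell at 10 µM by 0.63 (SE 0.13, adjusted p = 0.0133). DNAJB1 had 138 to 169 CPM in controls, 134 to 142 CPM at 10 µM and 178 CPM at 20 µM, with log2 differences of -0.30 (adjusted p = 0.140; with the block -0.34, adjusted p = 0.0353) and 0.36 at 20 µM against 10 µM (adjusted p = 0.187). The number of DNAJB1 counts for each DNAJA1 count was 0.34 to 0.39 in controls, 0.43 to 0.50 at 10 µM and 0.82 at 20 µM. The ratio did not overlap between doses, but 20 µM holds a single library and the ratio was not tested.

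DNAJB2, a J-domain protein best known from neurons, was low and followed the library names. It had 8.23 and 6.75 CPM in the letter-named controls 1 and 4 and 1.44 and 1.09 CPM in the digit-named controls 2 and 3. At 10 µM it had 3.35 and 2.87 CPM in the digit-named replicates 2 and 3 and 9.76 CPM in the letter-named replicate 4, and the 20 µM library, also letter-named, had 32.8 CPM. Each treated library exceeded its same-numbered control, by 1.44 to 3.99 times. The log2 fold change at 10 µM was 0.17 ± 0.70 (adjusted p = 0.900) without and 0.88 ± 0.21 (adjusted p = 0.00904) with the replicate block. The other J-domain genes were DNAJA2, DNAJA3, DNAJA4 and DNAJB6, with log2 fold changes at 10 µM of -0.26, -0.44, -0.35 and -0.07, none past the test. With the block DNAJA2 (-0.32, adjusted p = 0.0438) and DNAJA3 (-0.42, adjusted p = 0.0113) passed.

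Of the 3 HSP90 genes, HSP90AB1 and TRAP1 fell at 10 µM, 66.7% called against 19.1% of all genes. HSP90AB1 had 4864, 6266, 6353 and 5459 CPM in controls, 3989, 4052 and 3927 CPM at 10 µM and 2723 CPM at 20 µM. The groups did not overlap, and HSP90AB1 fell at 10 µM by 0.66 (SE 0.14, adjusted p = 0.0118), with a further log2 difference at 20 µM of -0.55 ± 0.21 (adjusted p = 0.0815). HSP90AA1 had 2076, 3699, 2865 and 2960 CPM in controls, 2241, 1860 and 2227 CPM at 10 µM and 1175 CPM at 20 µM. Control 1 lay within the 10 µM range. Its log2 fold change at 10 µM was -0.59 ± 0.19 (adjusted p = 0.0569), and it passed the test with the block (-0.73, adjusted p = 7.95e-05) and without control 1 (-0.74, adjusted p = 0.00726).

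TRAP1, the mitochondrial HSP90, had 448, 476, 481 and 398 CPM in controls, 359, 302 and 250 CPM at 10 µM and 136 CPM at 20 µM. It fell by 0.70 at 10 µM (SE 0.16, adjusted p = 0.0164; without replicate 3 at 10 µM, adjusted p = 0.0591). It was lower again at 20 µM, by a log2 difference of -1.16 ± 0.25 (adjusted p = 0.00958). The mitochondrial proteins TRAP1 and HSPA9 differed in direction at 20 µM against 10 µM.

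Of the 6 HSP90 cochaperones, 4 fell at 10 µM, 66.7% called against 19.1% of all genes. FKBP4, the immunophilin that serves steroid receptors, had 277, 324, 350 and 284 CPM in controls, 171, 159 and 129 CPM at 10 µM and 97.9 CPM at 20 µM, and fell by 1.14 (SE 0.16, adjusted p = 0.00312). STIP1, which bridges HSP70 and HSP90, had 579, 660, 708 and 582 CPM in controls, 445, 415 and 360 CPM at 10 µM and 272 CPM at 20 µM, and fell by 0.77 (SE 0.14, adjusted p = 0.00839). For both genes every treated library was below every control. AHSA1, which speeds the HSP90 ATPase, had 152, 189, 206 and 146 CPM in controls, 135, 123 and 103 CPM at 10 µM and 86.4 CPM at 20 µM. It fell by 0.66 (SE 0.18, adjusted p = 0.0348), a call that was lost without control 2, control 3, replicate 3 or replicate 4 at 10 µM (adjusted p 0.0786 to 0.109).

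CDC37, which loads kinases onto HSP90, had 419, 360, 367 and 356 CPM in controls, 287, 240 and 236 CPM at 10 µM and 309 CPM at 20 µM. It fell by 0.69 at 10 µM (SE 0.11, adjusted p = 0.00529), and its log2 difference at 20 µM against 10 µM was 0.28 (adjusted p = 0.259). PTGES3, the p23 cochaperone, had 595 to 767 CPM in controls, 537 to 647 CPM at 10 µM and 281 CPM at 20 µM. It did not pass the test at 10 µM (-0.34, adjusted p = 0.131; with the block -0.41, adjusted p = 0.00844) and was lower at 20 µM than at 10 µM (-1.06 ± 0.23, adjusted p = 0.00965). CHORDC1 passed neither test, with log2 differences of -0.26 and -0.57 (adjusted p = 0.450 and 0.255), and with the block -0.33 at 10 µM (adjusted p = 0.0480).

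**Figure D3:**
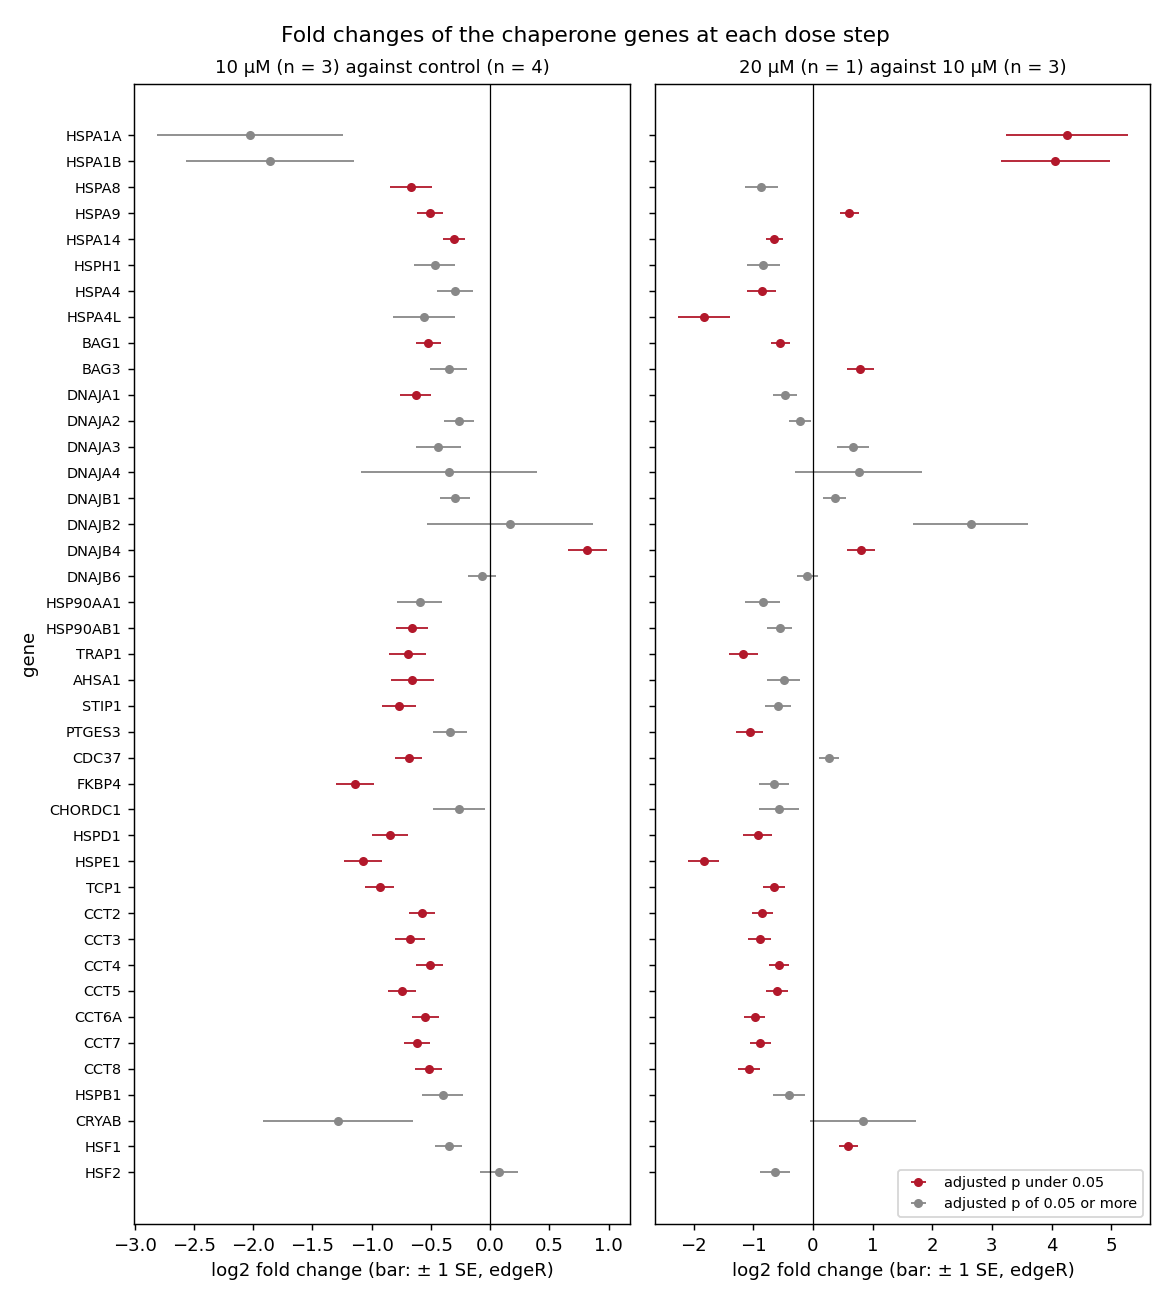
Log2 fold change with its standard error (horizontal axes) for each of the 41 chaperone genes (vertical axis) at 10 µM against control and for the single 20 µM library against 10 µM. Red points mark adjusted p under 0.05 and grey points the other genes. At 10 µM 21 red points lie below 0 and 1 above, and at 20 µM 16 lie below and 6 above.

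Both parts of the mitochondrial chaperonin fell at 10 µM and were lower again at 20 µM. HSPD1, which forms the chamber, had 1145, 1480, 1616 and 1329 CPM in controls, 814, 899 and 834 CPM at 10 µM and 448 CPM at 20 µM. HSPE1, which forms the lid, had 296, 430, 373 and 342 CPM in controls, 207, 183 and 171 CPM at 10 µM and 52.7 CPM at 20 µM. All treated libraries were below all controls for both. HSPD1 fell at 10 µM by 0.85 (SE 0.15, adjusted p = 0.00750), and HSPE1 by 1.07 (SE 0.16, adjusted p = 0.00375). At 20 µM against 10 µM the differences were -0.93 ± 0.24 for HSPD1 (adjusted p = 0.0209; with the block -0.48, adjusted p = 0.0522) and -1.83 ± 0.27 for HSPE1 (adjusted p = 0.00184; with the block -1.39, adjusted p = 0.000902).

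The pair did not keep its proportion in the single 20 µM library, and the ratio was not tested. HSPE1 counts for each HSPD1 count were 0.26, 0.29, 0.23 and 0.26 in controls, 0.25, 0.20 and 0.21 at 10 µM and 0.12 at 20 µM. The 10 µM ratios overlapped the control range and the 20 µM ratio was below the other 7 libraries. The genes lie head to head on chromosome 2, HSPD1 at 197486581 to 197516737 on the minus strand and HSPE1 at 197499994 to 197503457 on the plus strand, and their annotated spans overlap. HSPE1 also overlaps the readthrough gene HSPE1-MOB4, and GENCODE lists 26 pseudogenes named after HSPE1 and 17 named after HSPD1. Whether the authors' counting used strand is not given in the sources used here. A coding gene on the other strand also overlaps HSPA14, HSP90AA1, DNAJB1, CRYAB, HSF1, AHSA1, TRAP1, TCP1 and CCT4, so reads of the overlapping partners may have been shared.

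All 8 TRiC subunits fell at 10 µM, and all 8 were lower again at 20 µM. Their counts summed to 6565, 7058, 7491 and 6830 CPM in controls, 4918, 5077 and 4712 CPM at 10 µM and 2789 CPM at 20 µM. Each of the 8 was below every control in every treated library, as were 10.5% of all genes tested. Over all genes, 9.79% were called lower at 10 µM. Log2 fold changes at 10 µM ran from -0.93 to -0.51 (adjusted p 0.00234 to 0.0165), and those at 20 µM against 10 µM from -1.07 to -0.57. The calls at 10 µM held when any single library was left out. At 20 µM with the replicate block, CCT2, CCT3, CCT6A, CCT7 and CCT8 kept their calls, while TCP1 (-0.40, adjusted p = 0.127), CCT4 (-0.32, adjusted p = 0.283) and CCT5 (-0.44, adjusted p = 0.0772) did not. TCP1, CCT4 and CCT5 also lost the call when replicate 3 at 10 µM was left out (adjusted p 0.0650 to 0.0802). CCT4 and CCT5 lost it without control 2 or control 4 too (adjusted p 0.0574 to 0.0674), and CCT5 without replicate 2 at 10 µM (adjusted p = 0.0637).

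TCP1, the alpha subunit, had the largest fold change of the 8 at 10 µM. It had 749, 882, 872 and 775 CPM in controls, 457, 497 and 456 CPM at 10 µM and 300 CPM at 20 µM, and fell at 10 µM by 0.93 (SE 0.12, adjusted p = 0.00234). Its share of TRiC counts was 11.3 to 12.5% in controls, 9.30 to 9.78% at 10 µM and 10.8% at 20 µM, below the control range in all treated libraries. TCP1 overlaps ACAT2 on the other strand, and ACAT2 rose at 10 µM by 1.18 ± 0.14 (adjusted p = 0.00176) and was lower at 20 µM than at 10 µM by a log2 difference of -2.68 ± 0.26 (adjusted p = 0.000363). What ACAT2 reads contribute to the TCP1 values was not tested. CCT8, the theta subunit, had 1031, 1174, 1250 and 1156 CPM in controls, 864, 913 and 863 CPM at 10 µM and 421 CPM at 20 µM. Its fold change was among the smaller at 10 µM (-0.52) and was the largest of the 8 at 20 µM (-1.07 ± 0.19). CCT8 made up 15.7 to 16.9% of TRiC counts in controls, 17.6 to 18.3% at 10 µM and 15.1% at 20 µM.

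The other 6 subunits of the ring followed the same order of doses. CCT2, the beta subunit, had 602, 643, 664 and 612 CPM in controls, 450, 491 and 446 CPM at 10 µM and 258 CPM at 20 µM, with log2 differences of -0.58 at 10 µM (adjusted p = 0.00869) and -0.85 at 20 µM against 10 µM (adjusted p = 0.00741). CCT3, the gamma subunit, had 849, 870, 952 and 828 CPM in controls, 642, 613 and 540 CPM at 10 µM and 324 CPM at 20 µM, with differences of -0.68 (adjusted p = 0.00769) and -0.89 (adjusted p = 0.0101). CCT4, the delta subunit, had 535, 583, 634 and 591 CPM in controls, 416, 448 and 489 CPM at 10 µM and 304 CPM at 20 µM, with differences of -0.51 (adjusted p = 0.0153) and -0.57 (adjusted p = 0.0399). For these 3 the 20 µM library was the lowest and each 10 µM library lay between it and the controls. CCT5, the epsilon subunit, had 1184, 1219, 1331 and 1192 CPM in controls, 847, 824 and 738 CPM at 10 µM and 531 CPM at 20 µM, with differences of -0.75 (adjusted p = 0.00438) and -0.60 (adjusted p = 0.0368). CCT6A, the zeta subunit, had 811, 907, 928 and 881 CPM in controls, 629, 704 and 648 CPM at 10 µM and 336 CPM at 20 µM, with differences of -0.55 (adjusted p = 0.0115) and -0.98 (adjusted p = 0.00464). CCT7, the eta subunit, had 805, 780, 862 and 797 CPM in controls, 612, 587 and 533 CPM at 10 µM and 315 CPM at 20 µM, with differences of -0.62 (adjusted p = 0.00724) and -0.88 (adjusted p = 0.00665). The same order held for CCT5, CCT6A and CCT7.

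**Figure D4:**
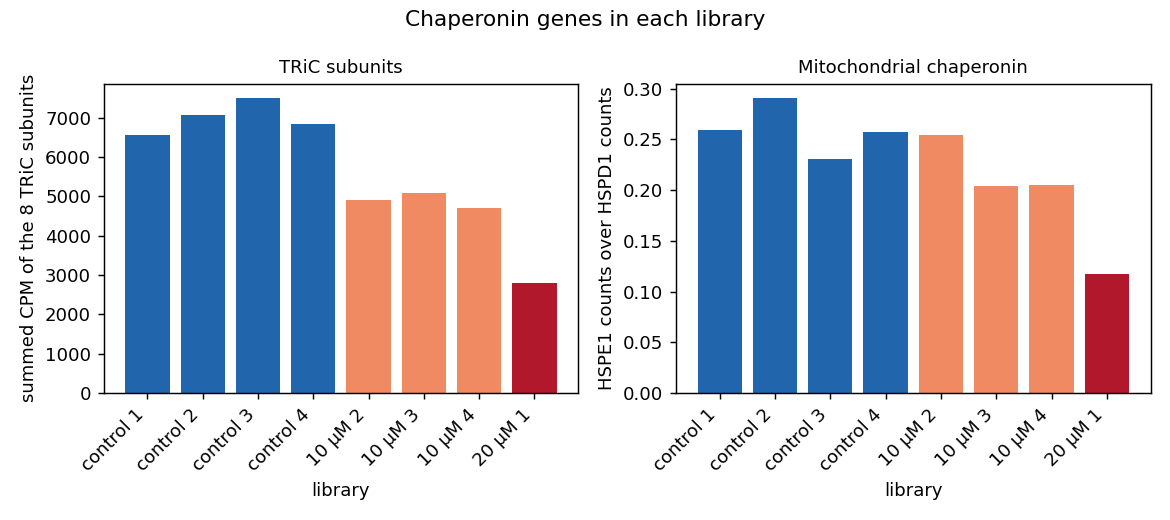
Left, summed CPM of the 8 TRiC subunits, and right, HSPE1 counts divided by HSPD1 counts (vertical axes), as 1 bar for each library (horizontal axes; blue control, orange 10 µM, red 20 µM). The TRiC sums of the 4 treated libraries, 2789 to 5077 CPM, lie below the lowest control, 6565 CPM, and the 20 µM ratio of 0.12 is the lowest bar on the right.

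The small heat shock proteins hold unfolded chains without ATP. HSPB1 had 235 to 399 CPM in controls, 209 to 271 CPM at 10 µM and 188 CPM at 20 µM, with log2 differences of -0.40 (adjusted p = 0.141) and, at 20 µM against 10 µM, -0.40 (adjusted p = 0.299; with the block -0.90, adjusted p = 0.0198). CRYAB was near the floor, with 0.81 to 1.59 CPM in controls and 0.15 to 1.11 CPM in treated libraries, and passed neither test.

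Neither heat shock factor passed the test at 10 µM. HSF1, the main stress-responsive factor, had 125, 110, 112 and 111 CPM in controls, 112, 85.5 and 97.6 CPM at 10 µM and 148 CPM at 20 µM. Its log2 fold change at 10 µM was -0.35 ± 0.11 (adjusted p = 0.0543; with the block -0.34, adjusted p = 0.0478). At 20 µM it was higher than at 10 µM by 0.59 ± 0.16 (adjusted p = 0.0243), a call that was lost with the block (0.51, adjusted p = 0.158) and without replicate 3 or replicate 4 at 10 µM (adjusted p = 0.0761 and 0.0582). HSF2 had 20.4 to 24.3 CPM in controls, 22.6 to 31.1 CPM at 10 µM and 16.7 CPM at 20 µM, and passed neither test (log2 differences 0.07 and -0.63).

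A second list held 65 chaperone partners and relatives that are not among the 41. Of these, 62 could be tested at 10 µM, and 17 fell and 3 rose, 32.3% against 19.1% of all genes, with a median log2 fold change of -0.18. At 20 µM against 10 µM 11 were lower and 6 higher, 27.4% against 26.3% of all genes, a share near the background. In all treated against control libraries 12 of 59 were lower and 3 higher, 25.4% against 14.2% of all genes. GRPEL1, the mitochondrial nucleotide exchange factor that partners HSPA9, had 93.4 to 114 CPM in controls and 43.3 to 58.0 CPM at 10 µM, and fell by 1.17 (SE 0.15, adjusted p = 0.00219). PAM16, a J-like protein of the mitochondrial import motor, fell by 0.76 (adjusted p = 0.00836).

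Of 20 HSP70 partners and paralogs tested at 10 µM, 5 fell and 2 rose, 35.0% against 19.1% of all genes. Of 12 HSP90 partners 4 fell and 0 rose, 33.3%. STUB1, a ubiquitin ligase that binds HSP70 and HSP90, fell by 0.63 (adjusted p = 0.00624). TTC4 and NUDC, which work with HSP90, fell by 0.76 (adjusted p = 0.00467) and 0.81 (adjusted p = 0.00330). HSPA6, an HSP70 made mainly under stress, had 0.61 to 1.39 CPM in controls, 3.89 to 4.17 CPM at 10 µM and 9.08 CPM at 20 µM, and rose by 1.82 ± 0.33 at 10 µM (adjusted p = 0.00780). HSPA6 was at low levels throughout, and its treated libraries did not overlap the controls.

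The chaperonin partner PDCL3 fell by 0.63 (adjusted p = 0.00976), and CCT6B, a testis form of a TRiC subunit, had 0.05 to 0.52 CPM in controls and 0.35 to 2.24 CPM in treated libraries and passed no test. Among the prefoldins, which bring actin and tubulin to TRiC, PFDN2 had 95.7 to 102 CPM in controls, 53.9 to 63.7 CPM at 10 µM and 115 CPM at 20 µM. PFDN2 fell by 0.91 at 10 µM (SE 0.11, adjusted p = 0.00176) and was higher at 20 µM than at 10 µM by 1.01 ± 0.15 (adjusted p = 0.00215). PFDN1 and HSBP1, a small protein that binds HSF1, had log2 fold changes of -0.22 and -0.25 at 10 µM (adjusted p = 0.115 and 0.120), and HSBP1 was lower at 20 µM than at 10 µM (-0.51 ± 0.16, adjusted p = 0.0435). HSPB6, HSPB11 and HSF4 had 0.86, 0.05 and 0.29 at 10 µM, and none passed the test there. HSPB11 had 88.1 to 94.1 CPM in controls, 98.7 to 106 CPM at 10 µM and 47.3 CPM at 20 µM, and was lower at 20 µM than at 10 µM (-1.13 ± 0.15, adjusted p = 0.00136). The chaperonin and HSP90 partners PDCL3 (-0.93, adjusted p = 0.00867) and NUDC (-0.76, adjusted p = 0.0159) were also lower at 20 µM than at 10 µM.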

How the data were processed

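RNA from 8 K562 libraries was sequenced after removal of ribosomal RNA with biotinylated probes and copying with random primers, per the labels' protocols. The authors deposited 1 table of gene counts in whole numbers. The build hg38 and the tools HISAT2, StringTie, limma, DESeq2 and bcl2fastq 2.0 stand in the submitters' processing notes, with no role given. The 9 lines that name no gene were dropped. Low counts were unevenly spaced (2958 entries at 4, 401 at 1), and 1 count need not be 1 read.

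CPM are counts per 1000000 of a library's total, without the scaling factor (0.9029 to 1.085). RPKM used the joined length of all exons annotated for a gene in GENCODE release 29. Tests used R 4.3.3 and edgeR 4.0.16: filterByExpr, TMM scaling (trimmed mean of M values) and the two-sided quasi-likelihood test, with Benjamini-Hochberg adjustment over all genes tested and calls at 0.05. The script was tested on simulated data. The 4 treated libraries were compared with 4 controls, and a fit with 3 dose levels gave 10 µM against control and 20 µM against 10 µM. Alternatives used other scalings and filters, DESeq2 1.42.0, limma 3.58.1 (voom), the replicate number as a block, the style of library names and each library left out.

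Replicate numbers come from the labels. Deviations were taken from the mean of the controls and from the mean of all treated libraries, with both doses pooled. Those of same-numbered control and treated libraries correlated at 0.45, 0.25, 0.39 and 0.26 for numbers 1 to 4 (across genes). The value for number 1 therefore also holds the difference between the doses. Control 2 correlated at 0.31 with replicate 3 at 10 µM, and control 3 at 0.24 with replicate 2 at 10 µM. These values cannot decide whether numbers mark pairs. The labels do not say what a number shares, so the pairing was assumed.

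The chaperone genes and all lists were chosen with earlier results of these data known. Chaperone genes past the threshold in any comparison are given with their values (a few by the range within a group), the others by range and count. Of the second list, the 2 genes per class with the smallest p in treated against control are named. Summing HSPA1A with HSPA1B, and using only controls 2 to 4 with the 10 µM libraries, were alternatives chosen after seeing the data.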

Additional observations from a re-analysis of the deposited data

Results flagged for a closer look

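Among the 4 controls, 1 library stood apart from the other 3 for 4 of the 41 chaperone genes, by the gap to its nearest neighbour over the range of the group, and chance marks about 1 group in 20. HSPA1A had 368.6 CPM in control 1, and the next control had 52.89 CPM. HSPA1B had 350.4 CPM in control 1, and the next had 58.72 CPM. These are near-identical copies, so they are not separate observations. HSF1 had 125.3 CPM in control 1, and the next had 112.2 CPM. CHORDC1 had 183.6 CPM in control 3, and the next had 129.4 CPM. The part of any cause in these values was not tested.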

How the results depend on the processing

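Chaperone genes called at 10 µM against control numbered 22, and 36 with the replicate block and 13 in letter-named libraries alone. With the name style as a covariate 33 were called, and leaving out 1 library gave 18 to 25. At 20 µM against 10 µM they numbered 22, and 13 to 26 when 1 library was left out. In treated against control they numbered 17, with the name style as a covariate 24, and 0 to 23 when 1 library was left out. The counts over all genes moved too. In treated against control 1855 were called, 3395 by DESeq2, 2815 with the replicate block, 3348 with the name style as a covariate, 2981 with only controls 2 to 4 and the 10 µM libraries, and 64 to 3021 when 1 library was left out. At 10 µM against control 2842 were called, 4657 with the replicate block, 4665 with the name style as a covariate, 1002 in letter-named libraries, and 1364 to 3021 when 1 library was left out. The cause was not tested.

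The log2 values that changed sign belong to genes that were not called. In treated against control, HSPA1A and HSPA1B (0.47 and 0.46) had -0.22 and -0.23 by limma-voom, -0.26 and -0.27 with the replicate block and -0.59 and -0.62 with only controls 2 to 4 and the 10 µM libraries. HSPA1A had -0.00597 with the name style. Leaving out 1 library gave HSPA1A -2.04 to 1.89, HSPA1B -1.87 to 1.70, DNAJA4 -0.44 to 0.16 and HSF2 -0.24 to 0.0698. HSF2 had 0.00226 with upper-quartile scaling and 0.0177 with only controls 2 to 4 and the 10 µM libraries. At 10 µM against control HSF2 had -0.00205 with the replicate block, -0.0659 in letter-named libraries and -0.11 to 0.16 when 1 library was left out. DNAJA4 had 0.48 in digit-named libraries and -1.20 to 0.0105 when 1 library was left out, and DNAJB2 -0.57 to 0.65. At 20 µM against 10 µM, DNAJA2 and DNAJB6 had 0.0375 and 0.12 with the replicate block, and DNAJB6 0.0742 with the name style. The block changed no call of a chaperone gene beyond those given with the results.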
